A study of Mus musculus with 2 samples.

Results

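The nuclear genes for subunits of the mitochondrial respiratory chain and of ATP synthase were examined in tissue from under and from above the dorsal aorta of the mouse embryo. Members were chosen by symbol: genes named Nduf with a subunit letter, Sdh, Uqcr, Cox5 to Cox8 and Atp5, without pseudogenes. The symbol rule matched 78 of 24675 named genes; 4 of them were pseudogenes, which left 74 members. By name, 35 belonged to complex I, 4 to complex II, 7 to complex III, 15 to complex IV and 13 to ATP synthase, also called complex V.

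The respiratory chain sits in the inner mitochondrial membrane. Complexes I and II take electrons from NADH and succinate, complex III passes them to cytochrome c, and complex IV hands them to oxygen. Complexes I, III and IV pump protons as they do so, and ATP synthase uses the returning protons to make ATP. Most subunits are encoded in the nucleus and imported, while a few catalytic ones are encoded by mitochondrial DNA. The genes are active in nearly all cells, and some subunits of complex IV have isoforms restricted to muscle, heart or testis.

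RNA came from C57BL/6 embryos at embryonic day 10.5. Ventral tissue lay under the aorta and dorsal tissue between its roof and the notochord, and both were laser-microdissected from cryosections of the same unfixed embryos. Each tissue had 1 Affymetrix Mouse Gene 2.0 ST array, labelled as biological replicate 4 on both sides, so replicate errors and p-values cannot be given. The RNA was amplified from picogram amounts before labelling, and how many embryos were pooled or used for each array is not stated in the labels.

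All values are log2 expression values, and a difference is ventral minus dorsal. Background was set by 1360 olfactory and vomeronasal receptor genes, whose 95th and 99th percentiles over both arrays were 3.92 and 5.48. A level under 3.92 is called background. A gene is called ventral-high where its ventral level is 2-fold or more above its dorsal level, and dorsal-high where it is 2-fold or more below. Genes were kept if the higher of their values reached 3.10, the median of all named genes, which left 13982 genes and 68 of the 74 members. Levels of different genes are read by different probes, so they show whether a gene was above background and do not rank transcript amounts between genes. In dissected tissue, fewer cells of a type and less RNA per cell cannot be told apart.

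Several markers of the tissues lay on the sides given by the labels. Of 8 kept markers of coelomic epithelium and visceral mesenchyme, 4 were ventral-high, among them Wt1 at 6.61 in ventral and 3.80 in dorsal tissue. Osr1 of the same list was on the other side within 2-fold, at 5.01 in ventral and 5.63 in dorsal tissue. Of 8 kept markers of sclerotome and notochord, 5 were dorsal-high, among them Pax9 at 4.02 in ventral and 6.15 in dorsal tissue. Of 5 kept endothelial markers 3 were ventral-high, and of 4 kept smooth muscle markers 2 were. Of all kept genes 9.44% were ventral-high and 4.88% dorsal-high. Some of these folds are only bounds: Wt1, Emcn, Kdr and Cnn1 were at background in dorsal tissue. Among 6 kept red blood cell markers, Klf1 alone was at least 2-fold apart, at 4.25 in ventral and 5.35 in dorsal tissue. The log2 of the summed signal of all 6 was 13.38 in ventral and 13.48 in dorsal tissue. Of 8 kept muscle markers none was at least 2-fold apart, and all 3 measured macrophage markers were at background on both arrays. In the neuron list Nefm was at 8.19 in ventral and 5.45 in dorsal tissue, and Tubb3 at 4.64 in ventral and 5.78 in dorsal tissue. In the gut and liver list Ttr was at 4.32 in ventral and 6.89 in dorsal tissue. The other 4 genes of that list were at background on both arrays. Of 5 kept mesenchyme markers, 3 were higher in ventral and 2 in dorsal tissue. Pdgfra alone was at least 2-fold apart, at 5.47 in ventral and 4.13 in dorsal tissue. Twist1 and Prrx1 went the other way within 2-fold, with differences of -0.97 and -0.38. The part of these cell types in the differences below was not tested.

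Like most kept genes, most subunit genes were at similar levels on both sides of the aorta. The exceptions were single subunits rather than whole complexes. Of 68 kept members, 54 lay within 2-fold, as did 11980 of all 13982 kept genes. Another 9 were ventral-high, which is 13.2% of the members, where 9.44% of all kept genes were. The other 5, or 7.35%, were dorsal-high, where 4.88% of all kept genes were. In either direction 20.6% of the members were 2-fold or more apart, against 14.3% of all kept genes. The members are brighter than most genes, and differences were more frequent among bright genes. Of 38 members whose mean of both arrays reached 5.48, 10 were at least 2-fold apart, or 26.3%, against 32.7% of the 1964 genes as bright as that. Of these members 7 were ventral-high, where 21.8% of the bright genes were, and 3 were dorsal-high, where 10.9% were.

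The split between the sides depended on the scaling. With quantile normalization of the columns, 6 members were ventral-high and 6 dorsal-high, in place of 9 and 5. The shares of all genes then kept were 8.42% and 5.77%. With a loess on level the counts were 6 and 5, where 9.92% and 4.56% of all kept genes were. The median difference of the members was 0.06, against -0.12 for all kept genes, and it changed sign to -0.14 with quantile normalization and to -0.02 with the loess. All kept genes had medians of -0.06 and -0.003 under those scalings. The middle 50% of the members lay between -0.31 and 0.55, and that of all kept genes between -0.42 and 0.31. The family as a whole therefore had no direction that held under every scaling.

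**Figure D1:**
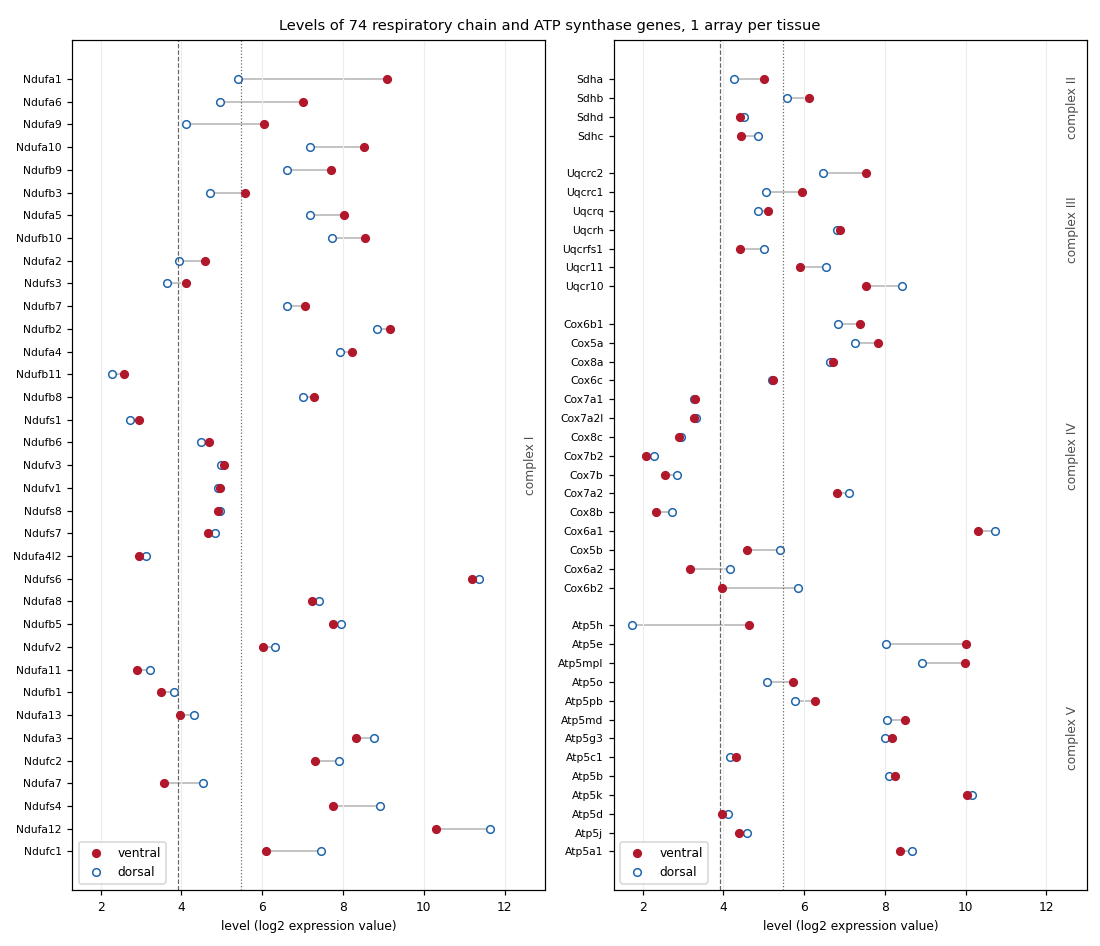
Log2 expression value (horizontal axis) of each of the 74 members in ventral tissue (filled red) and dorsal tissue (open blue), 1 array each, grouped by complex and ordered within a complex by ventral minus dorsal difference. The dashed and dotted lines mark the 95th and 99th percentiles of the receptor genes, 3.92 and 5.48. The points of most genes lie close together, while Ndufa1, Atp5h and Cox6b2 are far apart.

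Detection was high and alike on both arrays. Of 74 members, 61 were above background in ventral tissue and 61 in dorsal tissue, with 59 above it on both. Of all 24675 named genes, 5879 were above it in ventral and 5965 in dorsal tissue. Of these named genes 4752 were above it on both arrays and 17583 on neither. A further 4 members were above background on 1 array alone. Atp5h and Ndufs3 were above it in ventral tissue alone, and Cox6a2 and Ndufa7 in dorsal tissue alone. The 11 members at background on both arrays included isoforms with a restricted pattern, Cox7a1, Cox7b2, Cox8b, Cox8c and Ndufa4l2, and the supercomplex factor Cox7a2l. They also included Ndufs1, Ndufa11, Ndufb1, Ndufb11 and Cox7b, subunits that working complexes contain. The widely expressed glycolytic gene Gapdh, at 2.05 in ventral and 2.12 in dorsal tissue, was likewise at background. A reading at background on these arrays does not show that a transcript was lacking.

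Ndufa1 had the greatest difference of any member. Ndufa1 encodes a small membrane subunit of complex I needed for its assembly, and the gene is on the X chromosome. Its level was 9.08 in ventral and 5.41 in dorsal tissue, 12.7-fold higher in ventral tissue. Both levels were above background, but the dorsal level was under the 99th percentile of the receptor genes, where a fold is less certain.

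In ATP synthase, Atp5h and Atp5e were far apart on the measured values. Atp5h, which encodes subunit d of the peripheral stalk, was at 4.64 in ventral and 1.74 in dorsal tissue. Its dorsal level was at background, so its fold has only a lower bound, 1.64-fold, and its rank among the members is not established. Atp5e, which encodes the epsilon subunit of the central stalk, was at 10.003 in ventral and 8.03 in dorsal tissue, 3.92-fold higher in ventral tissue with both levels well above background. Both genes were higher in ventral tissue.

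In the opposite direction the greatest difference was that of Cox6b2, the testis isoform of a complex IV subunit that faces the intermembrane space. It was at 3.97 in ventral and 5.86 in dorsal tissue, 3.69-fold lower in ventral tissue, and its ventral level lay just above background. Ndufc1, a small membrane subunit of complex I, was at 6.09 in ventral and 7.46 in dorsal tissue, 2.59-fold lower in ventral tissue. Ndufa12, an accessory subunit of the matrix arm of complex I, was at 10.29 in ventral and 11.64 in dorsal tissue, 2.55-fold lower in ventral tissue. Both Ndufa12 levels were far above background.

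Promoter sequences of 6 members are shown. They are the 4 with the widest gaps in measured value on the ventral side (Ndufa1, Atp5h, Ndufa6 and Atp5e, of which Atp5h has only a bound) and 2 of the 3 with the widest on the dorsal side (Cox6b2 and Ndufa12). Each is the 120 bases before the annotated start, 5′ to 3′ on the strand of the gene, from RefSeq on GRCm38.p6. Capitals mark matches to short motifs of NRF1, GABPA and YY1, transcription factors known to act at many respiratory chain promoters.
Ndufa1, chrX:37191239-37191358, minus strand: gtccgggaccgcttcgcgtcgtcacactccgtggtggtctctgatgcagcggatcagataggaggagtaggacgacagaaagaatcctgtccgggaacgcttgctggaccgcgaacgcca
Atp5h, chr11:115419920-115420039, minus strand: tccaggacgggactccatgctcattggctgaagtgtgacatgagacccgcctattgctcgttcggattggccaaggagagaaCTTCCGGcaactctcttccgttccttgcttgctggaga
Ndufa6, chr15:82354292-82354411, minus strand: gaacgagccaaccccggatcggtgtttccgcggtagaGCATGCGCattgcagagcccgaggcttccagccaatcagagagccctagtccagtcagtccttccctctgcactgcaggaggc
Atp5e, chr2:174464102-174464221, minus strand: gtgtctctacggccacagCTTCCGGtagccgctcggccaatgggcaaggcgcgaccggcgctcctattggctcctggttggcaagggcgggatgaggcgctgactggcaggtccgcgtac
Ndufa12, chr10:94198915-94199034, plus strand: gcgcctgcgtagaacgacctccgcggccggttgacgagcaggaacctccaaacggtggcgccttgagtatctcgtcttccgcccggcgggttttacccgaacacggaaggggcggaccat
Cox6b2, chr7:4753095-4753214, minus strand: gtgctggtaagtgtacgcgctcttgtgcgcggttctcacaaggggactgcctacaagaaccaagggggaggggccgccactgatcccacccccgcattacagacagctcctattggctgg

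The motifs searched were GCATGCGC for NRF1, CCGGAAG for GABPA and AAGATGGC for YY1, on both strands, in windows of 250 bases before to 50 after the start. Such windows were found for 62 of the 74 members, and no matches of different motifs overlapped in the 67 member windows. The GABPA motif was in windows of 16 members, or 25.8%, against 17.3% of 9660 kept protein-coding genes and 9.93% of all 27025 genes in the promoter table. The NRF1 motif was in 8 members, or 12.9%, against 5.35% and 3.05% of those genes. The YY1 motif was in 9 members, or 14.5%, against 4.64% and 3.19%. Of the 62 members, 28 had at least 1 of the 3 motifs, or 45.2%, against 24.8% and 14.9% of those genes. The median GC content of the windows was 58.3% in members and 60.0% in kept protein-coding genes.

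The motifs were found among members on either side and among members that were alike. Of 6 ventral-high genes that had a window, 2 had the GABPA motif, Atp5h and Atp5e, 1 the NRF1 motif, Ndufa6, and 1 the YY1 motif, Ndufa9. Of 4 dorsal-high genes with a window, Ndufc1 and Ndufs4 had the YY1 motif and none had the others. Of the other 52 members, which were within 2-fold or not kept, 14 had the GABPA motif, 7 the NRF1 motif and 6 the YY1 motif. By complex, GABPA matches were in 5 of 11 members of complex V and 4 of 31 of complex I, while YY1 matches were in 7 of 31 of complex I and in 2 of 11 of complex V. A match is a description of the letters and not evidence of binding.

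Complex I, the largest of the complexes, had 33 kept members, 5 of them ventral-high and 3 dorsal-high. These were 15.2% and 9.09% of its kept members, where 9.44% and 4.88% of all kept genes were. Of its 19 members counted as bright above, 7 were at least 2-fold apart, or 36.8%, against 32.7% of all genes as bright. The median difference of complex I was 0.05, and -0.16 with quantile normalization. The core subunits, which carry the flavin and the iron-sulphur clusters, were within 2-fold where they were kept, which was the case for 5. The differences of the 4 above background on both arrays ran from -0.30 to 0.05. Ndufv1, which binds NADH and the flavin, was at 4.95 in ventral and 4.90 in dorsal tissue. Ndufv2, an iron-sulphur subunit next to it, was at 6.01 in ventral and 6.31 in dorsal tissue. Ndufs7 and Ndufs8, iron-sulphur subunits near the quinone site, differed by -0.16 and -0.04. Ndufs3, a subunit of the matrix arm without a cluster, was at 4.11 in ventral tissue and at background in dorsal tissue, at 3.63. Ndufs1, the largest core subunit, was at background on both arrays.

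All complex I genes at least 2-fold apart were accessory subunits, which surround the core and serve assembly and stability. Of 27 kept accessory subunits, Ndufa4 counted among them, 29.6% were at least 2-fold apart, where 14.3% of all kept genes were. Only 5 core genes were kept, too few to set them apart from accessory subunits by such a count. The mean of both arrays reached 5.48 in 18 of these accessory subunits and in 1 core gene. Of these 18 accessory subunits, 7 were at least 2-fold apart, or 38.9%, against 32.7% of all genes as bright. After Ndufa1, the next was Ndufa6, at 7.02 in ventral and 4.95 in dorsal tissue, 4.22-fold higher in ventral tissue. Ndufa9, which lies near the quinone site, was at 6.03 in ventral and 4.12 in dorsal tissue, 3.76-fold higher. Ndufa10, an accessory subunit of the membrane arm, was at 8.51 in ventral and 7.18 in dorsal tissue, 2.51-fold higher. Dorsal levels of Ndufa6 and Ndufa9 were under 5.48, while both Ndufa10 levels were above it. Ndufb9, in the far part of the membrane arm, was at 7.69 in ventral and 6.62 in dorsal tissue, 2.10-fold higher, and dropped below 2-fold with quantile normalization and with the loess. On the dorsal side, Ndufs4, an accessory subunit of the matrix arm whose loss causes a Leigh-like disease in mice, was at 7.76 in ventral and 8.93 in dorsal tissue, 2.25-fold lower in ventral tissue.

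The remaining accessory subunits of complex I were within 2-fold or at background. Just short of it were Ndufb3 and Ndufa5, 1.81-fold higher in ventral tissue, and Ndufb10, 1.74-fold higher. On the other side, Ndufa7 was at 3.57 in ventral and 4.53 in dorsal tissue, the ventral level at background. Genes of the membrane arm did not share a direction: Ndufb2 was at 9.17 in ventral and 8.84 in dorsal tissue, while Ndufc2 was at 7.32 in ventral and 7.89 in dorsal tissue. Ndufs6, a zinc-binding subunit of the matrix arm, was bright on both arrays and within 2-fold, at 11.20 in ventral and 11.37 in dorsal tissue. Among the others, Ndufa2, Ndufb6, Ndufb7, Ndufb8 and Ndufv3 were between 0.10 and 0.66 higher in ventral tissue on the log2 scale. Differences of Ndufa3, Ndufa8, Ndufa13 and Ndufb5 ran from -0.44 to -0.17. Ndufa4, once counted in complex I and now placed in complex IV, was at 8.23 in ventral and 7.92 in dorsal tissue.

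**Figure D2:**
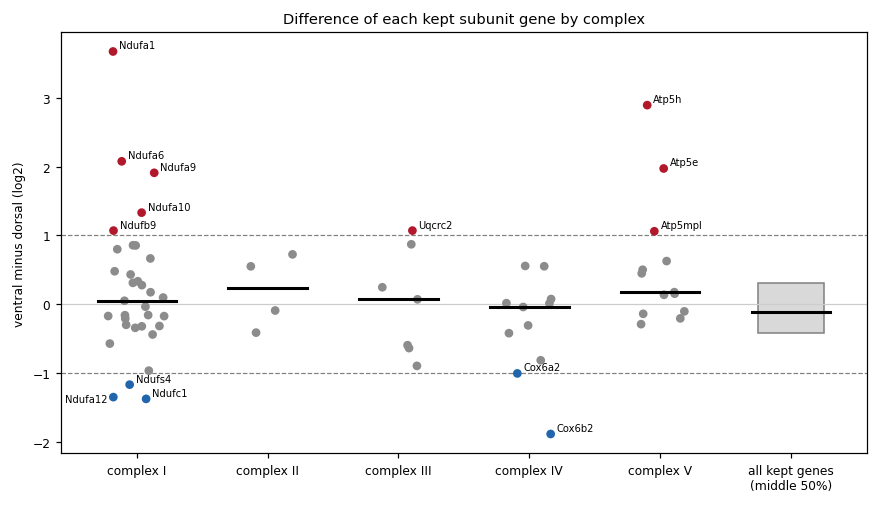
Ventral minus dorsal log2 difference (vertical axis) of each kept member by complex, with ventral-high genes in red, dorsal-high genes in blue and the rest in grey. Black bars are medians, dashed lines mark 2-fold, and the box at the right is the middle 50% of all 13982 kept genes. The complex medians lie between -0.04 and 0.23, and the named genes stand outside the dashed lines. Horizontal scatter within a complex carries no value.

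Complex II, succinate dehydrogenase, which is also an enzyme of the tricarboxylic acid cycle, had all 4 genes above background on both arrays. None was 2-fold apart, where 14.3% of all kept genes were. Sdha, the flavoprotein that oxidises succinate, was at 5.0 in ventral and 4.28 in dorsal tissue, and Sdhb, the iron-sulphur subunit, at 6.13 in ventral and 5.58 in dorsal tissue. The anchor Sdhc was at 4.44 in ventral and 4.85 in dorsal tissue, and the anchor Sdhd at 4.42 in ventral and 4.51 in dorsal tissue. The sign for Sdhd turned after centring.

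Complex III, which carries electrons from ubiquinol to cytochrome c, had all 7 genes above background on both arrays. Its median difference was 0.07, and it changed sign to -0.26 with quantile normalization, to -0.13 with the loess and to -0.22 with Cyc1 added. The large core proteins of the matrix side were higher in ventral tissue. Uqcrc2 was at 7.54 in ventral and 6.47 in dorsal tissue, 2.10-fold higher, and Uqcrc1 at 5.94 in ventral and 5.07 in dorsal tissue, 1.83-fold higher. Uqcrc2 dropped below 2-fold with quantile normalization and with the loess. The Rieske protein and a pair of small subunits had differences of the other sign, each within 2-fold. The Rieske iron-sulphur protein Uqcrfs1 was at 4.42 in ventral and 5.02 in dorsal tissue, Uqcr11 at 5.91 in ventral and 6.54 in dorsal tissue, and Uqcr10 at 7.52 in ventral and 8.42 in dorsal tissue. Uqcr10 became dorsal-high with quantile normalization and with the loess. The hinge protein Uqcrh and the small subunit Uqcrq, which borders cytochrome b, differed by 0.07 and 0.25. Cyc1, the cytochrome c1 subunit that the symbol rule does not match, was at 7.65 in ventral and 8.17 in dorsal tissue.

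Complex IV, cytochrome c oxidase, had 11 kept members of 15, a median difference of -0.04, which was 0.078 after centring, and no ventral-high gene. Among all kept genes 9.44% were ventral-high and 4.88% dorsal-high. The 2 dorsal-high genes of complex IV, Cox6b2 and Cox6a2, are both isoforms with a restricted pattern. Cox6a2, the heart and skeletal muscle isoform, was at 3.16 in ventral and 4.17 in dorsal tissue, at least 1.19-fold lower in ventral tissue, and it dropped below 2-fold under each of the 3 other scalings. The summed signal of 8 muscle markers had a log2 of 7.44 in ventral and 7.57 in dorsal tissue, and among them Ckm was at background on both arrays. Of the 8, 6 were higher in dorsal tissue, the same side as Cox6a2, with a median difference of -0.49. Of all 13982 kept genes, 8194 were higher in dorsal tissue, and the median was -0.12. Myog was at 3.59 in ventral and 4.56 in dorsal tissue and Myf5 at 3.48 in ventral and 4.43 in dorsal tissue, both within 2-fold. Des and Actc1 went the other way, also within 2-fold. Des was at 4.54 in ventral and 3.55 in dorsal tissue, and Actc1 at 6.19 in ventral and 5.79 in dorsal tissue. The part of muscle cells in the Cox6a2 difference was not tested.

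The ubiquitous partners of these isoforms were bright and differed little. Cox6a1 was at 10.31 in ventral and 10.73 in dorsal tissue, and Cox6b1 at 7.39 in ventral and 6.84 in dorsal tissue, both within 2-fold. Cox7a2 was at 6.80 in ventral and 7.11 in dorsal tissue, where its muscle isoform Cox7a1, at 3.30 in ventral and 3.29 in dorsal tissue, was at background. Cox8a was at 6.72 in ventral and 6.65 in dorsal tissue, while Cox8b and Cox8c were at background on both arrays. For Cox4, which lies outside the symbol rule, the ubiquitous Cox4i1 was at 8.51 in ventral and 8.17 in dorsal tissue. The hypoxia-responsive isoform Cox4i2, at 3.58 in ventral and 3.71 in dorsal tissue, was at background. In the Ndufa4 pair, Ndufa4l2, also known as a hypoxia target, was at background on both arrays. Except for Cox7b and Cox7b2, which were both at background, the widely expressed form of each of these families was above background on both arrays, and Cox6b2 was the only restricted form that was.

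Cox5a and Cox5b, nuclear subunits close to the catalytic core, leaned to different sides. Cox5a was at 7.82 in ventral and 7.27 in dorsal tissue, whereas Cox5b was at 4.58 in ventral and 5.40 in dorsal tissue. The annotated pseudogene Cox5b-ps, left out of the members, was at 10.20 in ventral and 9.27 in dorsal tissue, with a difference of the other sign from its parent gene. Whether probes for Cox5b also read the pseudogene was not tested, so the Cox5b difference is uncertain. Cox5b became dorsal-high with quantile normalization. Cox6c was at 5.23 in ventral and 5.21 in dorsal tissue.

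ATP synthase had all 13 members kept, with 3 ventral-high, none dorsal-high, and a median difference of 0.18. Of all kept genes 9.44% were ventral-high and 4.88% dorsal-high, and the median was -0.12. Of its 8 members counted as bright above, 2 were at least 2-fold apart, or 25%, against 32.7% of all genes as bright. Among the 3 ventral-high genes, Atp5h has only a bound, and Atp5mpl dropped below 2-fold with quantile normalization and with the loess. Such a count is too small to set the complex apart. In the F1 head, where ATP is made, the alpha and beta subunits hardly differed. Atp5a1 was at 8.38 in ventral and 8.67 in dorsal tissue, and Atp5b at 8.24 in ventral and 8.11 in dorsal tissue. In the central stalk, which turns with the proton flow, Atp5e stood apart from its neighbours. The gamma subunit Atp5c1 was at 4.32 in ventral and 4.16 in dorsal tissue, and the delta subunit Atp5d at 3.98 in ventral and 4.12 in dorsal tissue.

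The peripheral stalk, which keeps the head from turning, had 3 of its 4 measured genes higher in ventral tissue. Besides Atp5h, the OSCP gene Atp5o was at 5.72 in ventral and 5.09 in dorsal tissue, and the subunit b gene Atp5pb at 6.27 in ventral and 5.77 in dorsal tissue, both within 2-fold. Atp5j, which encodes coupling factor 6, was at 4.38 in ventral and 4.58 in dorsal tissue. The median of these 4 was 0.56, and between 0.26 and 0.68 under the other scalings. In the membrane part, Atp5mpl, a small proteolipid, was at 9.99 in ventral and 8.93 in dorsal tissue, 2.08-fold higher in ventral tissue, and dropped below 2-fold with quantile normalization and with the loess. Atp5k, which encodes the dimer-forming subunit e, was at 10.04 in ventral and 10.15 in dorsal tissue. Atp5md, another small subunit, was at 8.49 in ventral and 8.04 in dorsal tissue. The proton-carrying c-ring is represented by Atp5g3, 1 of the genes that encode the same mature c subunit, at 8.18 in ventral and 8.01 in dorsal tissue.

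Genes that serve the same complexes were read from lists of textbook members. Of 17 kept genes of the tricarboxylic acid cycle and pyruvate entry, which supply NADH and succinate, 3 were ventral-high and none was dorsal-high, where 9.44% and 4.88% of all kept genes were. The counts were 2 and 1 with quantile normalization, 3 and 1 with the loess, and 4 and 0 after centring. Dld, the lipoamide dehydrogenase shared by several of these enzymes, was at 8.18 in ventral and 6.32 in dorsal tissue. Idh2, the NADP-dependent isocitrate dehydrogenase, was at 5.32 in ventral and 3.78 in dorsal tissue, and Pdhb, the beta subunit of pyruvate dehydrogenase, at 6.01 in ventral and 4.99 in dorsal tissue. The list's median was 0.36, against -0.12 for all kept genes, and between 0.38 and 0.48 under the other scalings. Mdh2, malate dehydrogenase, went the other way within 2-fold, at 5.47 in ventral and 6.39 in dorsal tissue.

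Assembly factors of complex IV lay on both sides, with 3 of 21 kept genes ventral-high and 5 dorsal-high, where 9.44% and 4.88% of all kept genes were. After centring the counts were 4 and 3, so their balance depended on the scaling. Cmc2, a small protein of complex IV biogenesis, was at 3.30 in ventral and 6.69 in dorsal tissue, at least 6.84-fold lower in ventral tissue. Sco2, a copper chaperone, was at 6.16 in ventral and 8.85 in dorsal tissue, 6.43-fold lower in ventral tissue. Cox11, another copper chaperone, was at 5.07 in ventral and 2.84 in dorsal tissue, at least 2.22-fold higher in ventral tissue. Copper delivery genes thus lay on both sides: Cox17, which passes copper to Sco proteins, was at 8.59 in ventral and 8.12 in dorsal tissue. Cox16, an assembly factor, was at 4.39 in ventral and 6.05 in dorsal tissue. The list's median was -0.30, and between -0.26 and -0.10 under the other scalings.

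The assembly lists of the other complexes each had 1 gene at least 2-fold apart, where 14.3% of all kept genes were. For complex I, Ndufaf1 was the 1 gene of 10 kept that was at least 2-fold apart, at 4.93 in ventral and 3.46 in dorsal tissue, the dorsal level at background. With the loess 2 of these genes were ventral-high, and with quantile normalization 1 was ventral-high and 1 dorsal-high. For complexes II, III and V, Atpaf1, a chaperone of the F1 beta subunit, was the 1 gene of 11, at 4.32 in ventral and 5.45 in dorsal tissue. Under each of the other 3 scalings 1 gene of that list was ventral-high and 1 dorsal-high. Atpif1, the inhibitor of ATP synthase, was at 10.91 in ventral and 10.59 in dorsal tissue. Among 10 kept genes of cristae organisation, Apool was at 6.64 in ventral and 4.00 in dorsal tissue and Micos10 at 5.53 in ventral and 3.94 in dorsal tissue. Chchd3, of the same inner membrane complex, went the other way, at 5.50 in ventral and 6.77 in dorsal tissue.

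Electron and metabolite carriers were also mixed. Etfa and Etfb encode the paired subunits of the electron transfer flavoprotein and had differences of opposite sign. Etfb was at 5.61 in ventral and 4.15 in dorsal tissue, 2.76-fold higher in ventral tissue. Etfa was at 5.59 in ventral and 6.82 in dorsal tissue, 2.34-fold lower in ventral tissue. Etfdh, the oxidoreductase that takes electrons from this flavoprotein, was at 4.81 in ventral and 3.42 in dorsal tissue. Vdac2, a channel of the outer membrane, was at 3.87 in ventral and 5.93 in dorsal tissue, at least 4.02-fold lower in ventral tissue, while Vdac1 and Vdac3 were within 2-fold. Slc25a4, the adenine nucleotide carrier, was at 8.80 in ventral and 8.66 in dorsal tissue. Cytochrome c itself, Cycs, was at background on both arrays.

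**Figure D3:**
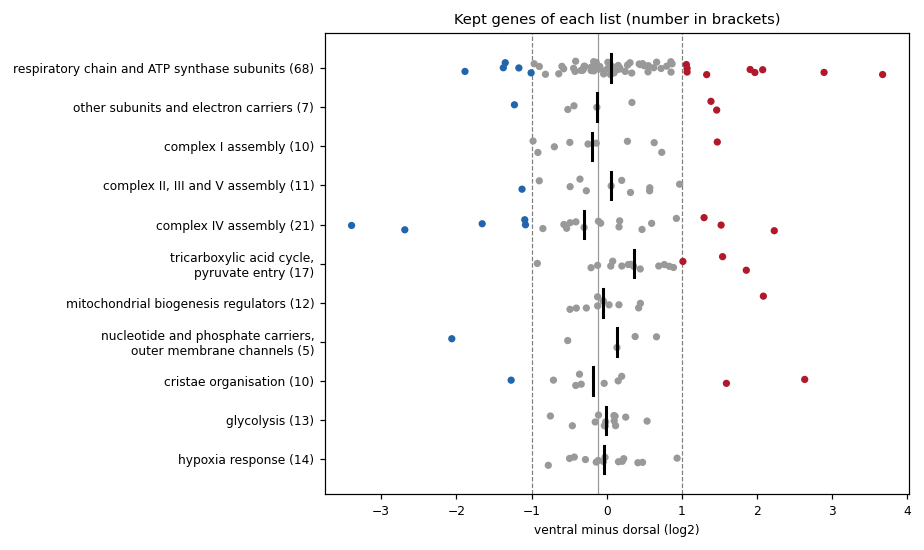
Ventral minus dorsal log2 difference (horizontal axis) of every kept gene in the subunit set and in each list, with the number of kept genes in brackets; red points are ventral-high and blue points dorsal-high. Black bars are list medians, dashed lines mark 2-fold, and the grey line is the median of all kept genes, -0.12. The tricarboxylic acid cycle has the highest median, 0.36, and glycolysis and the hypoxia response have no gene beyond the dashed lines. Vertical scatter within a list carries no value.

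Among 12 kept regulators of mitochondrial biogenesis, Gabpa was the only gene at least 2-fold apart, where 14.3% of all kept genes were. Gabpa, the DNA-binding subunit of the factor whose motif was searched above, was at 5.96 in ventral and 3.87 in dorsal tissue, at least 4.10-fold higher in ventral tissue. Its partners Gabpb1 and Gabpb2 were at background on both arrays. Yy1 was at 7.72 in ventral and 7.76 in dorsal tissue, and Nrf1 was at background, at 3.63 in ventral and 3.60 in dorsal tissue. Ppargc1a, a coactivator of mitochondrial genes, and Tfam, which packages mitochondrial DNA, were at background on both arrays.

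Glycolysis and the hypoxia response had no gene at least 2-fold apart, where 14.3% of all kept genes were. Many of their genes could not show a fold. Of 19 measured glycolytic genes 12 were at background on both arrays, and of 18 measured hypoxia genes 9 were. Of 13 kept glycolytic genes the differences ran from -0.75 to 0.54. Pkm, pyruvate kinase, was at 8.55 in ventral and 9.30 in dorsal tissue, and Ldhb, a lactate dehydrogenase, at 7.71 in ventral and 7.61 in dorsal tissue. Of 14 kept hypoxia genes the differences ran from -0.78 to 0.94. Hif1a, the oxygen-regulated transcription factor, was at 7.44 in ventral and 6.51 in dorsal tissue, while its target Vegfa was at 4.09 in ventral and 4.52 in dorsal tissue. With the differences centred on all kept genes, 1 hypoxia gene became ventral-high, and with the loess 1 glycolytic gene became dorsal-high. Subunits encoded by mitochondrial DNA were not analysed here.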

How the data were processed

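The authors deposited a table of log2 expression values with a single value for each gene on each array. Affymetrix Expression Console and RMA are named in the submitters' processing notes; RMA subtracts background, aligns probe distributions between arrays by quantiles and summarises probes. Versions, the genome build and which arrays were normalized as a set are not stated in those notes. Of 25429 features, 24675 had a symbol in the platform annotation and 754 were left out as unnamed; biotypes came from a RefSeq table of GRCm38.p6. Arrays were grouped by title. No test was possible with a single array on each side, so genes at least 2-fold apart were counted. Where the dimmer level was under the receptor genes' 95th percentile, a fold is a bound against that percentile, and none is given where both levels were under it. Genes named with values were members at least 2-fold apart, the 3 brightest of each complex, isoform pairs and the list genes with the greatest differences, plus others to complete a group. Members, lists, motifs and subunit classes were chosen with earlier results of these data known. Only the 2-fold call was tried on simulated differences, with shifts well past that threshold, and the other steps were not. Alternatives covered scaling, centring, floors, fold thresholds and membership. Python 3.11.15, numpy 2.4.6, pandas 2.3.3, statsmodels 0.14.6 and matplotlib 3.10.9 were used.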

Additional observations from a re-analysis of the deposited data

How the results depend on the processing

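No paired analysis was possible because each tissue has 1 array and the tissues share a single replicate number; leaving out a replicate was likewise not possible. A median is said to move if it shifts by more than 0.1 on the log2 scale. At a 1.5-fold threshold 16 members were ventral-high and 10 dorsal-high, where 16.35% and 15.0% of all kept genes were. At 3-fold the counts were 5 and 1, where 4.48% and 1.63% of all kept genes were. Without the restricted isoforms and factors 3 members were dorsal-high. With quantile normalization the median over the members was -0.14, and those of complexes I to IV were -0.16, 0.023, -0.26 and -0.27. Centred on all kept genes, the median over the members was 0.18 and those of complexes I to V were 0.17, 0.35, 0.19, 0.078 and 0.29. A floor at 5.48, the 99th percentile of the receptor genes, left 42 members. The median over the members was then 0.29, against 0.34 for all genes kept at that floor. Those of complexes I, II and V were 0.31, 0.55 and 0.45. Means in place of medians were 0.18 over the members, 0.22 for complex I, -0.30 for complex IV and 0.56 for complex V. Complex III had -0.22 with Cyc1 added and -0.13 with the loess. Complex IV had -0.31 with a floor at the 95th percentile and -0.21 with no floor. Of the 14 members at least 2-fold apart, 13 stayed so after centring, 10 with quantile normalization and 10 with the loess, and none changed sign. The cause of these shifts was not tested. Precision is limited by the number of arrays, and no gene near background allows a firm fold.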

Other observations

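Across the 68 kept members, which are not independent replicates and share the same arrays, Pearson's r between ventral and dorsal levels was 0.90, and Spearman's rho was also 0.90. Over all 13982 kept genes these were 0.83 and 0.72, in a set with many genes near background. The difference of a member had a Spearman correlation of 0.11 with the genomic span of its gene and 0.09 with its mean level. Over all kept genes with a span, the Spearman correlation of the difference with span was 0.17.

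Besides Cox5b-ps, another pseudogene that the symbol rule matched was above background on both arrays. Atp5l-ps1 was at 7.43 in ventral and 8.74 in dorsal tissue, the value for ventral minus dorsal being -1.31. Ndufs5-ps, at 4.06 in ventral and 3.60 in dorsal tissue, exceeded background on the ventral array only, and Atp5c1-ps was at background on both.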
